A study of Mus musculus with 6 samples.

Results

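The 9 genes described here encode regulators of G protein signalling (RGS proteins) and were taken from the deposited table by their symbols alone, 9 of its 23420 genes. They are Rgs1, Rgs2, Rgs3, Rgs10, Rgs12, Rgs14, Rgs16, Rgs18 and Rgs19. Their RNA was measured in eosinophils grown from wild-type (WT) mouse bone marrow, in 3 libraries of cells given IL-33 (2.5 ng/mL, 3 hours) and 3 libraries of cells given phosphate-buffered saline (PBS). All 6 libraries came from cells that had received stem cell factor and FLT3 ligand, each at 100 ng/mL, until day 4 and IL-5 at 20 ng/mL from then on, and that were used on day 14 after dead cells were removed. The labels name no sort for eosinophils. They do not tell whether libraries came from separate mice or cultures, so every p-value here is set against library-to-library spread that could be technical.

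When a ligand binds a G protein-coupled receptor, the receptor loads the alpha subunit of a heterotrimeric G protein with GTP, and the signal lasts until the alpha subunit hydrolyses that GTP. RGS proteins speed up this hydrolysis through a shared RGS domain and so shorten the signal, above all for alpha subunits of the Gi and Gq classes. In leukocytes the family is known for limiting responses to chemokines and other chemoattractants, the class of ligands that guides eosinophils into tissue. Rgs1, Rgs2, Rgs3, Rgs16 and Rgs18 belong to the R4 group, mostly small proteins with little beyond the RGS domain. Rgs10, Rgs12 and Rgs14 form the R12 group, in which Rgs12 and Rgs14 also carry a GoLoco motif that binds inactive Gi alpha, and Rgs19 is of the RZ group.

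IL-33 libraries had more RNA of 1 RGS gene and less of 3 others. Rgs3 rose, Rgs2, Rgs12 and Rgs18 fell, and Rgs1, Rgs10, Rgs14, Rgs16 and Rgs19 did not pass the test (limma on log2 of normalized count + 1, adjusted p under 0.05 over all 10544 genes tested). All 9 genes met the filter of a normalized count of at least 10 in at least 3 libraries. The test called 31.9% of all genes, 17.4% higher and 14.4% lower, so the 4 calls among 9 genes are read against a background in which calls were common. The same 4 genes were the ones without overlap between the groups, as were 50.2% of all genes tested. The median log2 fold change was −0.42 over the 9 genes and −0.03 over all genes tested.

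The libraries held 9362650 to 10785521 reads with IL-33 and 8218303 to 8981930 reads with PBS. Rn45s, the ribosomal RNA precursor gene, held 24.3% of reads in IL-33 replicate 1, 59.6% in replicate 2 and 54.8% in replicate 3, against 13.7% to 24.8% in PBS libraries. IL-33 replicate 1 stood apart from the other libraries, at 53.3 on a second principal component that held 16.8% of the variance, so results are also given without it and with it alone. Scaled to equal totals in place of the authors' factors, the median over all genes tested was −1.06 on the log2 scale, and higher genes made up 4.76% of the calls in place of 54.7%. Without Rn45s in those totals the median was −0.45 and the share 21.0%. The eosinophil identity was checked with 10 marker genes, which all passed the filter. Their summed normalized count was 18840 to 31330 in IL-33 libraries and 51550 to 62610 in PBS libraries, and 9 of them fell. Ear2, among these, entered the test only through its PBS values, so it could only be called lower. The monocyte and macrophage markers summed to 4561 to 5193 in IL-33 libraries and 2246 to 2469 in PBS libraries, with Csf1r higher (1.40) and 3 others tested not called. The part of either shift in the RGS values was not tested. In such bulk RNA, fewer cells of a type and less RNA per cell cannot be told apart. Markers of other cells were present too. The neutrophil markers summed to 2288 to 2684 normalized counts with IL-33 and 2342 to 2863 with PBS, most of it Ngp, with 0 of 7 tested higher and 2 lower (Mpo and Cxcr2). Those of mast cells and basophils summed to 431 to 735 with IL-33 and 716 to 806 with PBS. Most of it was Gata2, which eosinophils also express. Of 6 tested, 0 were higher and 2 lower (Cpa3 and Ms4a2). Cpa3 and Ms4a2 entered the test only through their PBS values, so they could only be called lower. The B cell markers summed to 32.2 to 54.0 with IL-33 and 48.8 to 68.5 with PBS, mostly Cd79a, those of T and NK cells to 13.6 to 33.3 with IL-33 and 13.98 to 23.3 with PBS, mostly Cd3d, and the erythroid ones to 13.6 to 29.2 with IL-33 and 14.7 to 29.1 with PBS, and the 1 gene tested in each of these 3 lists was not called. Within these lists, Ncr1 and 4 of the 6 erythroid genes in the table were at 0 in every library, and Cd3e and C1qa were at or under 2.70. Other markers of the same lists were higher. C1qb reached 13.6 in IL-33 replicate 3 and Cd3d 24.3 in IL-33 replicate 1. Klf1 reached 18.9 in PBS replicate 2 and Epor 15.4 in IL-33 replicate 2. The low values therefore do not show that a cell type was absent.

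Rgs3, whose protein acts on both Gi and Gq alpha subunits, was the R4 gene that rose. It is on chromosome 4 (62559847 to 62704001, plus strand, mm10), with 17 annotated transcripts that the gene-level table does not separate. Rgs3 had 200.5, 178 and 397 normalized counts in IL-33 replicates 1, 2 and 3, against 94.0, 70.6 and 69.2 in PBS replicates 1, 2 and 3. Every IL-33 library was above every PBS library, and IL-33 replicate 3 lay well above the other IL-33 libraries. The means were 258 ± 120.1 with IL-33 and 77.9 ± 13.9 with PBS (SD, n = 3 each). The difference was 1.64 on the log2 scale, with an SE of 0.32 and an adjusted p of 0.00817 (limma). Rgs3 was called without each of the 6 libraries in turn, at log2 fold changes of 1.28 to 1.86 and adjusted p of 0.000465 to 0.0478 (limma). With IL-33 replicate 1 alone it was 1.37 above PBS on the log2 scale. Scaled to equal totals, the log2 fold change was 0.61 and was not called (adjusted p = 0.195, limma). Without Rn45s in those totals it was 1.22 and called (adjusted p = 0.0144, limma).

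Rgs2 and Rgs18, which belong to a cluster of R4 genes on chromosome 1, both fell. Rgs2 encodes a protein known for its preference for Gq alpha and as an inducible brake on signalling (143999338 to 144004161, minus strand). It had 1273, 979.7 and 612 normalized counts in IL-33 replicates 1, 2 and 3, against 2226, 2042 and 2195 in PBS replicates 1, 2 and 3. The PBS libraries lay close together, and every IL-33 library was below them. Rgs2 averaged 955 ± 331 with IL-33 and 2154 ± 99.0 with PBS (SD, n = 3 each). The difference was −1.24 on the log2 scale, with an SE of 0.26 and an adjusted p of 0.0104 (limma). It kept its call in 5 of the 6 fits that left out a library, and without PBS replicate 3 it was −1.22 (adjusted p = 0.0543, limma). With IL-33 replicate 1 alone the log2 fold change was −0.76.

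Rgs18, best known from megakaryocytes and platelets and from blood cell precursors, lies on the same strand (144752683 to 144775435), beyond Rgs1. It had 63.8, 18.5 and 3.39 normalized counts in IL-33 replicates 1, 2 and 3, against 137, 165 and 169 in PBS replicates 1, 2 and 3. The IL-33 libraries were all below the PBS libraries and differed widely among themselves. IL-33 replicate 3 rested on 2 reads (95% exact Poisson interval 0.242 to 7.22 reads, counting error only), replicate 2 on 12 and replicate 1 on 71, where the PBS libraries held 177, 227 and 242. The means were 28.6 ± 31.5 with IL-33 and 157 ± 17.3 with PBS (SD, n = 3 each). The difference was −3.16 on the log2 scale, with an SE of 0.81 and an adjusted p of 0.0219 (limma). The log2 fold change was −2.15 without IL-33 replicate 3, −1.28 with IL-33 replicate 1 alone and −2.34 in edgeR's test on reads (adjusted p = 0.022). The call was lost when IL-33 replicate 2 was left out (−3.22) and when any 1 of the PBS libraries was (−3.25, −3.12 and −3.10 for replicates 1, 2 and 3), with adjusted p of 0.0645 to 0.0848 (limma), while the direction was the same in every fit run. Summed over 8 genes, the markers of megakaryocytes and platelets were at 2400 to 3044 normalized counts in IL-33 libraries and 2559 to 3373 in PBS libraries, most of it Itga2b, with Gp6 at or under 1.80 in every library. Those sums overlapped between the groups, and of the 4 markers tested Pf4 was higher (1.45), Gp1ba lower (−1.50) and 2 were not called. Whether such cells had a part in the Rgs18 values was not tested.

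Rgs12, a large member of the family, joins a PDZ domain and other binding modules to its RGS domain and GoLoco motif and acts on Gi alpha. The gene is on chromosome 5 (34949445 to 35039644, plus strand), has 18 annotated transcripts, and shares 5.50% of its exonic bases with the antisense gene Gm43791. Since no source used here states whether counting used strand, reads of the overlap may not be told apart. Rgs12 had 60.2, 128 and 94.9 normalized counts in IL-33 replicates 1, 2 and 3, against 255, 333 and 260.0 in PBS replicates 1, 2 and 3. The groups did not overlap, and a wide gap lay between the highest IL-33 and the lowest PBS library. The means were 94.3 ± 33.7 with IL-33 and 282 ± 43.5 with PBS (SD, n = 3 each). The difference was −1.63 on the log2 scale, with an SE of 0.29 and an adjusted p of 0.00575 (limma). Rgs12 was called without each library in turn, at −1.88 to −1.34 and adjusted p of 0.000199 to 0.037 (limma). With IL-33 replicate 1 alone the fall was larger, at −2.20, where that of Rgs2 and Rgs18 was smaller than with all libraries.

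**Figure D1:**
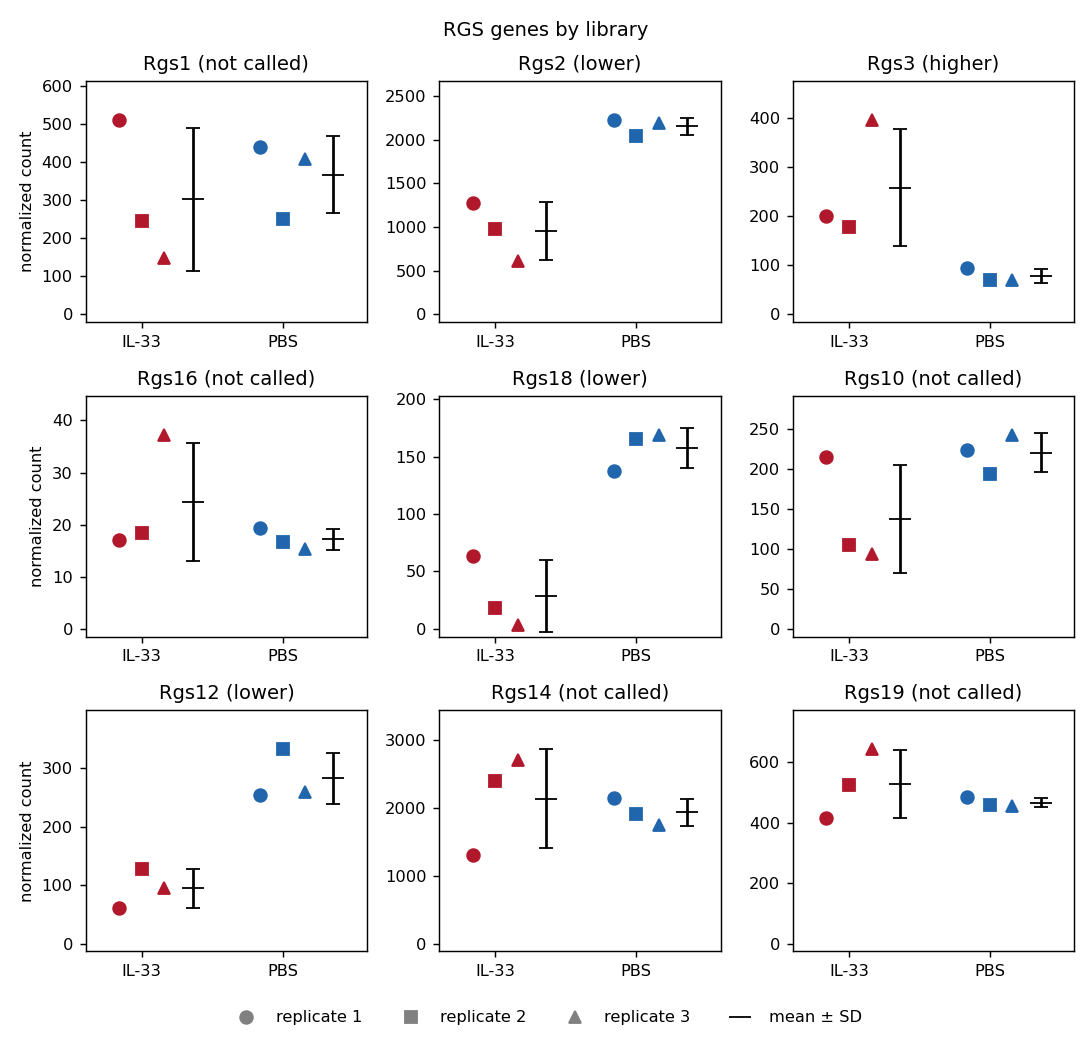
Normalized counts (y axis, linear, a separate scale for each gene) of the 9 RGS genes in the 3 IL-33 libraries (red, left) and the 3 PBS libraries (blue, right), with marker shapes for replicates 1, 2 and 3 and black marks for mean ± SD. Rgs3 is higher in every IL-33 library and Rgs2, Rgs12 and Rgs18 are lower, while the groups overlap for the other 5 genes.

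The stretches before the starts of the called genes are shown so that a reader can compare the sequence context of the gene that rose with those that fell. Promoter entries from RefSeq (GRCm38.p6, the same assembly as mm10) were at hand for 6 of the 9 genes, with 10 starts between them. Rgs1, Rgs14 and Rgs18 had none. Each line gives the 250 bases before a start, 5′ to 3′ on the gene's strand, for both starts of Rgs12, the single one of Rgs2 and the upstream one of Rgs3, at chr4:62559597-62559846 (plus), chr1:144004150-144004399 (minus), chr5:34949198-34949447 (plus) and chr5:34998828-34999077 (plus). Capitals mark matches, on either strand, to TATAAA, to the AP-1 motif TGANTCA and to TGACG, which is also the start of the cyclic AMP response element TGACGTCA.
Rgs3 upstream start: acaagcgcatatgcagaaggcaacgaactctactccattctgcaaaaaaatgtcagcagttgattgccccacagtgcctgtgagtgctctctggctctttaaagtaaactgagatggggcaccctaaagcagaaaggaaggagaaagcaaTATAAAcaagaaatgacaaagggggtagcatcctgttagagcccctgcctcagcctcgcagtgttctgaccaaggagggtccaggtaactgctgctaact
Rgs2: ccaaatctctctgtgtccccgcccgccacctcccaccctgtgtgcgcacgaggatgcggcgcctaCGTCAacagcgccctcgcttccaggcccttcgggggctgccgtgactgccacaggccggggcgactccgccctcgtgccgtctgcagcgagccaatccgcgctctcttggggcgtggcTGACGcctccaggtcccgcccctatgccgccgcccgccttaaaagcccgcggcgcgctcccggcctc
Rgs12 upstream start: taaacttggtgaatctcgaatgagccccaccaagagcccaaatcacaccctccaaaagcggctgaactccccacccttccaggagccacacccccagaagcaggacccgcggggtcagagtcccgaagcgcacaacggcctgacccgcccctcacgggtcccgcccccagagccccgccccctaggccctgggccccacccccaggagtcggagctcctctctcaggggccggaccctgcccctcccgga
Rgs12 downstream start: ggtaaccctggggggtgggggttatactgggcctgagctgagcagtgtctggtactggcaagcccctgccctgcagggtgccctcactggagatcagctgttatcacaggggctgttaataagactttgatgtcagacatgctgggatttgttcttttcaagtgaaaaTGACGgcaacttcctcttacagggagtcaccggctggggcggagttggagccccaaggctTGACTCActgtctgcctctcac

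G and C made up 72.4% of the Rgs2 stretch and 68.4% and 55.6% of the upstream and downstream Rgs12 stretches, and 48.4% and 56.8% of those before the upstream and downstream Rgs3 starts, where the median of all 32851 mouse promoter windows of this length was 52.4%. TATAAA was found before both Rgs3 starts and before none of the other 8 starts of RGS genes, and 12.4% of all windows held it. An AP-1 motif was found only before the downstream Rgs12 start, against 6.75% of all windows. TGACG was found before Rgs2 and before the downstream Rgs12 start, against 17.8% of all windows, and the GATA motif AGATAA before the downstream Rgs3 start, against 9.99%. Neither the NF-kB consensus, which 7.25% of all windows held, nor the whole TGACGTCA, held by 1.55%, was found before any of the 10 starts. A match here is a match of letters, and a window without one says nothing of binding elsewhere.

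The other 2 R4 genes did not pass the test. Rgs1, which is known for damping chemokine responses of B cells and lies between Rgs2 and Rgs18 (144242296 to 144249242, minus strand), had 511, 246 and 149 normalized counts in IL-33 replicates 1, 2 and 3, against 440, 251 and 409 in PBS replicates 1, 2 and 3. IL-33 replicate 1 was the highest of all libraries and replicate 3 the lowest, so the groups overlapped. The log2 fold change was −0.42 (95% interval −1.40 to 0.56, adjusted p = 0.463, limma). Rgs1 was called lower without IL-33 replicate 1 (−0.89, adjusted p = 0.0138, limma), and with that library alone it was 0.52 above PBS, which was not called. Rgs16, which is known to limit chemokine-driven migration of lymphocytes and lies further along chromosome 1 (153740349 to 153745468, plus strand), was low throughout. It had 17.1, 18.5 and 37.3 normalized counts in IL-33 replicates 1, 2 and 3, against 19.4, 16.7 and 15.4 in PBS replicates 1, 2 and 3, from 12 to 25 reads a library. At this depth its log2 fold change was 0.39 with an interval of −0.45 to 1.24 (adjusted p = 0.428, limma). Under equal totals it was −0.60, again not called. The antisense gene Gm28513 shares 10.1% of its exonic bases.

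Of the R12 and RZ genes beside Rgs12, Rgs10 came nearest to a call. Rgs10, a small regulator of Gi alpha known from microglia and platelets (chromosome 7, 128373621 to 128418758, minus strand), had 215, 105 and 93.2 normalized counts in IL-33 replicates 1, 2 and 3, against 224, 194 and 243 in PBS replicates 1, 2 and 3. IL-33 replicate 1 lay within the PBS range and the other IL-33 libraries below it. The log2 fold change was −0.77 (95% interval −1.50 to −0.05, adjusted p = 0.0919, limma). Without IL-33 replicate 1 it was −1.15 (adjusted p = 0.000325, limma), and with that library alone −0.03. Rgs10 was also called lower when libraries were scaled to equal totals with (−1.81) or without Rn45s (−1.20).

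Rgs14, which binds Gi alpha and Ras-like GTPases (chromosome 13, 55369732 to 55384687, plus strand), had 1314, 2395 and 2695 normalized counts in IL-33 replicates 1, 2 and 3, against 2147, 1904 and 1753 in PBS replicates 1, 2 and 3. IL-33 replicate 1 was below and the other IL-33 libraries above all PBS libraries. The log2 fold change was 0.08 (95% interval −0.53 to 0.69, adjusted p = 0.834, limma). It was 0.40 and called without IL-33 replicate 1 (adjusted p = 0.0313, limma), but −0.55 with that library alone, a fit that takes its spread from the PBS libraries. Under equal totals it was −0.96 and called. Rgs19, also known as GAIP, acts on Gi and Gz alpha (chromosome 2, 181688419 to 181693977, minus strand). It had 416, 524 and 644 normalized counts in IL-33 replicates 1, 2 and 3, against 484, 461 and 456 in PBS replicates 1, 2 and 3, again with IL-33 replicate 1 below the PBS libraries and the others above. Its log2 fold change was 0.16 (95% interval −0.29 to 0.60, adjusted p = 0.553, limma), and −0.88 and called under equal totals.

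**Figure D2:**
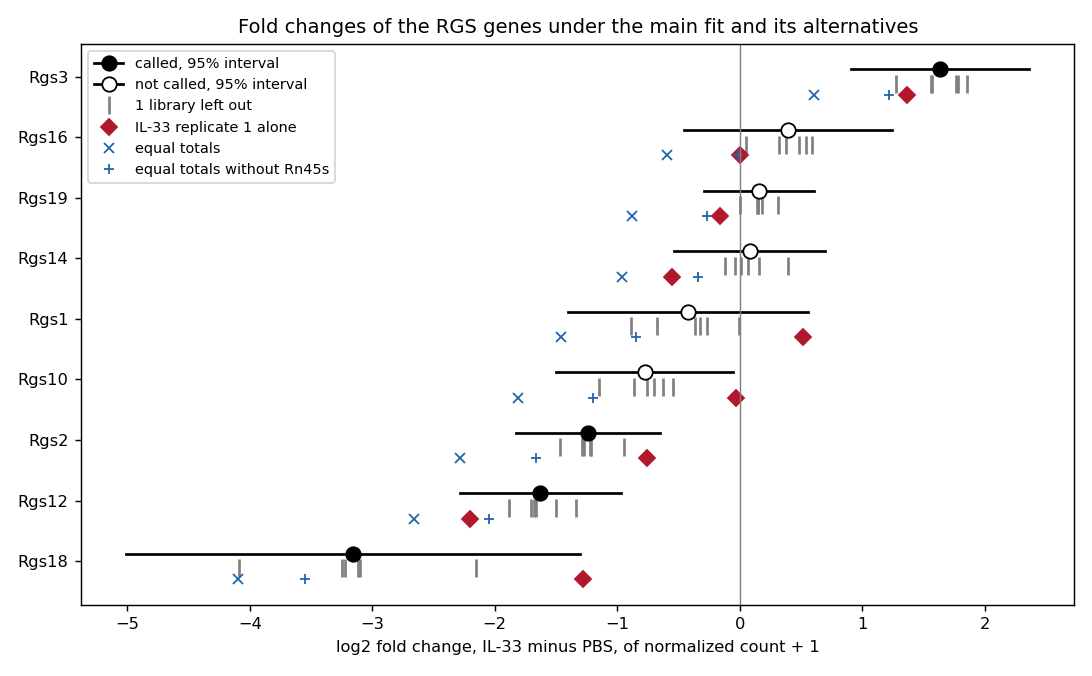
Log2 fold changes (x axis, IL-33 minus PBS, of normalized count + 1) of the 9 RGS genes, with filled (called) or open (not called) circles and 95% intervals for all libraries, grey ticks for fits without 1 library, red diamonds for IL-33 replicate 1 alone, and blue marks for scaling to equal totals with (x) or without (+) Rn45s. Rgs3 stays above 0 and Rgs2, Rgs12 and Rgs18 stay below 0 under all of these, while Rgs1, Rgs14, Rgs16 and Rgs19 lie on both sides.

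Compared per length, 3 genes made up most of the RGS transcripts in both groups. Levels were set per kb of exon of protein-coding transcripts, as normalized counts per kb. With IL-33 the order of mean levels was Rgs14 (906 ± 308), Rgs2 (293 ± 102), Rgs19 (247 ± 53.2), Rgs10 (104 ± 51.0), Rgs1 (78.6 ± 48.7), Rgs3 (28.3 ± 13.1), Rgs18 (14.1 ± 15.5), Rgs12 (13.5 ± 4.81) and Rgs16 (10.4 ± 4.83), each per kb with SD and n = 3. With PBS it was Rgs14 (821 ± 84.5), Rgs2 (662 ± 30.4), Rgs19 (218 ± 7.03), Rgs10 (167 ± 18.7), Rgs1 (95.5 ± 26.4), Rgs18 (77.4 ± 8.50), Rgs12 (40.3 ± 6.20), Rgs3 (8.52 ± 1.52) and Rgs16 (7.34 ± 0.88), on the same scale. Among genes next to each other in these orders, the ranges with IL-33 were apart only between Rgs14 and Rgs2 and between Rgs19 and Rgs10, and all other neighbours overlapped. With PBS only Rgs1 and Rgs18, and Rgs3 and Rgs16, overlapped. With the exons of all annotated transcripts as the length, Rgs2 (594 per kb) stood above Rgs14 (456 per kb) in the PBS libraries, and Rgs18 above Rgs1 and Rgs16 above Rgs3, so the order of these pairs depends on the length used.

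Shares within a library do not change with any scaling of libraries. Each share also moves with the other genes of the sum, of which Rgs14 was the largest part. The Rgs2 share was lower with IL-33. Rgs2 made up 25.9%, 17.1% and 10.4% of the summed level per kb of the 9 genes in IL-33 replicates 1, 2 and 3, against 30.7%, 31.3% and 32.8% in PBS replicates 1, 2 and 3. Rgs14 made up 37.0%, 57.7% and 63.0% in the IL-33 replicates, against 40.9%, 40.3% and 36.2% in the PBS replicates, so that IL-33 replicate 1 lay within the PBS range. Rgs19 made up 12.9% to 16.6% with IL-33 and 10.1% to 10.7% with PBS, without overlap. Rgs16 was also without overlap, at 0.45% to 0.88% with IL-33 and 0.32% to 0.37% with PBS, although neither gene was called. The shares of Rgs3, Rgs12 and Rgs18 did not overlap between the groups either. The ratio of Rgs3 to Rgs12 per kb was 2.55, 1.07 and 3.20 in IL-33 replicates 1, 2 and 3, against 0.283, 0.163 and 0.204 in PBS replicates 1, 2 and 3, so Rgs3 exceeded Rgs12 in each IL-33 library and was below it in each PBS library. The summed level of the 9 genes was 1509 to 1817 per kb with IL-33 and 2007 to 2229 per kb with PBS on the authors' scale. With 3 libraries a group, an exact permutation test of such a share cannot give a p below 0.10, and none was run.

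**Figure D3:**
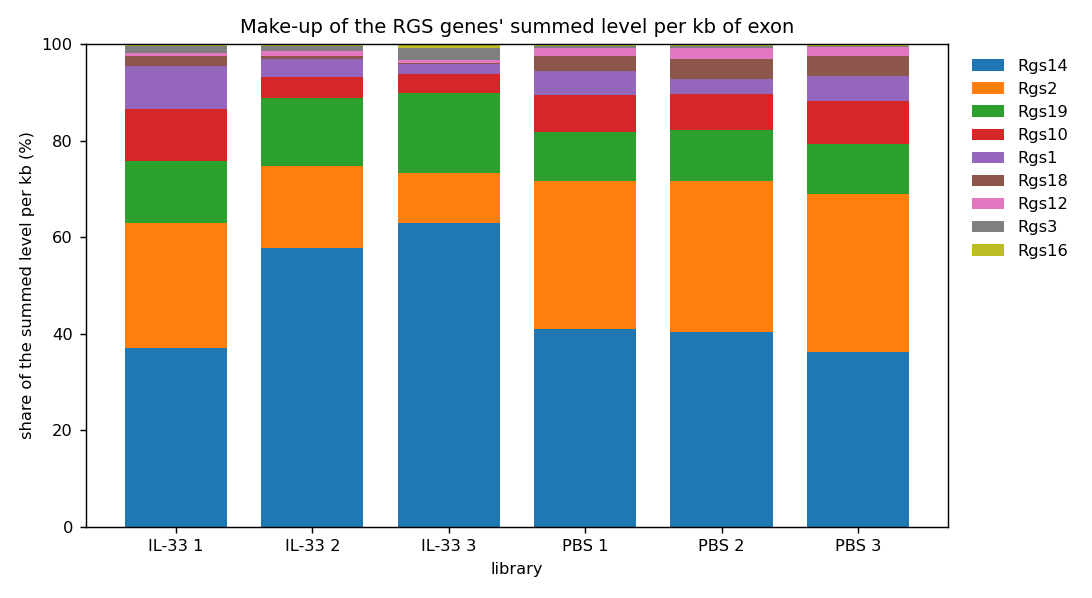
Share of each RGS gene (y axis, %) in the summed level per kb of exon of the 9 genes, for the 3 IL-33 libraries (left) and the 3 PBS libraries (right). The Rgs2 share is 10.4% to 25.9% in IL-33 libraries and 30.7% to 32.8% in PBS libraries.

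In the cluster on chromosome 1, Rgs1 lies 238 kb from Rgs2 and 503 kb from Rgs18. Rgs2 and Rgs18 were called lower and Rgs1 was not, and whether Rgs1 differed from them was not tested. Rgs13, another R4 gene, lies between Rgs2 and Rgs1 and had no read in any library. On the other side of Rgs2, Uchl5, a proteasome-bound deubiquitinase, fell as well (35.4 ± 4.58 with IL-33, 101 ± 25.5 with PBS, log2 fold change −1.46, SE 0.27, adjusted p = 0.00666, limma). The genes next to Rgs3 in the table, Zfp618 and 4933430I17Rik, were near 0 in both groups. Tial1 beside Rgs10 (−0.78) was called lower, and lost its call in 5 of the 6 fits without a library. The genes next to Rgs12, Hgfac (−0.47, adjusted p = 0.322, limma) and Msantd1 (−0.69, adjusted p = 0.216, limma), were not called, nor were BC017158 beside Rgs10, Lman2 beside Rgs14 and Tcea2 beside Rgs19.

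Across the 6 libraries, the genes whose log2 values followed Rgs3 most closely among 7345 candidates with a mean of at least 50 were Pgs1, Syap1, Sod1 and Zfp516 (Pearson r 0.9958 to 0.9968). Those closest to Rgs18 were Smc4, a condensin subunit, Tcn2, which carries vitamin B12, the lipid flippase gene Atp11b and the eosinophil ribonuclease gene Ear1 (0.9983 to 0.9998). The 6 points fall into their 2 groups and IL-33 replicate 3 is extreme in both patterns, so these r describe likeness in these libraries only. Of the first 4, Sod1 (0.84), Zfp516 (0.58) and Pgs1 (0.50) were called higher on the log2 scale and Syap1 (0.37) was not, and under equal totals the first 3 had values of −0.20, −0.46 and −0.54, not called. Without Rn45s in the totals Sod1 (0.42), Zfp516 (0.16) and Pgs1 (0.08) were not called either. Smc4 (−1.73), Tcn2 (−1.08), Atp11b (−2.02) and Ear1 (−3.07) were called lower, and lost their calls in the same 4 fits as Rgs18.

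The wider RGS family was scarcely detected. Of 14 further genes named for the family or its binding partners, 13 were in the table, 5 of them with no read in any library, and 1 passed the filter. That gene, Rgs11, had 19.8, 32.3 and 28.8 normalized counts in IL-33 replicates 1, 2 and 3, against 18.6, 20.4 and 21.7 in PBS replicates 1, 2 and 3, and was not called (0.37, adjusted p = 0.36, limma).

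G protein-coupled receptors known from granulocytes changed in both directions. Of 33 receptor genes that entered the test, 9 rose, 11 fell and 13 were not called, around a median log2 fold change of −0.46. In the main test, the share called in this list and those that follow is read beside the 31.9% called among all genes. None of the lists was tested against it. Counts from other fits belong beside the calls of those fits over all genes. Those calls were 5551 of 10544 under equal totals, 5860 of 10386 without IL-33 replicate 1 and 1013 of 10313 without PBS replicate 3. The 3 largest rises were in receptors known to couple to Gs. Adora2a, an adenosine receptor, had 1576, 1806 and 2295 normalized counts in IL-33 replicates 1, 2 and 3, against 237, 130 and 133 in PBS replicates 1, 2 and 3 (log2 fold change 3.54, SE 0.27, adjusted p = 0.000157, limma). Ptger2, a prostaglandin E2 receptor (3.35), and Adora2b, another adenosine receptor (3.17), followed, and all 3 were called under every scaling and without each library. Of the falls in genes with a mean of at least 50, the largest were P2ry10, a lysophosphatidylserine receptor (−1.90), Ccr3, the eotaxin receptor (−1.65), and P2ry14, the UDP-glucose receptor (−1.52). Ccr3 had 1882, 627 and 383 normalized counts in IL-33 replicates 1, 2 and 3, against 2445, 1810 and 3151 in PBS replicates 1, 2 and 3, so its groups overlapped. P2ry10 lost its call in 3, Ccr3 in 5 and P2ry14 in 1 of the 6 fits without a library. Leaving out a library, the count of lower receptors was 15 without IL-33 replicate 1, 4 without IL-33 replicate 2, and 3, 5 and 1 without PBS replicates 1, 2 and 3. Under equal totals the split was 3 higher and 19 lower receptors. With the filter at 50, 25 receptors entered the test, 9 higher and 7 lower. Gpr34, among the 11 falls, entered the main test only through its PBS values, so it could only be called lower.

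Among the G protein subunits, of 18 genes that entered the test, 4 rose, 3 fell and 11 were not called (median 0.07). Gnai3, a Gi alpha subunit and so a substrate of most of the 9 RGS proteins, averaged 3608 ± 244 with IL-33 and 2019 ± 161 with PBS (log2 fold change 0.84, SE 0.15), while Gnai2, another Gi alpha gene, was at 3425 ± 213 with IL-33 and 3817 ± 228 with PBS (−0.16, adjusted p = 0.419, limma). Gnao1 (1.34) and Gna13 (0.72) were also called higher and Gng2, a gamma subunit, lower (−0.84). Leaving out IL-33 replicate 2, IL-33 replicate 3 or PBS replicate 1 gave 2 higher subunits, and leaving out PBS replicate 2 or 3 gave 1. The count of lower subunits was 1 without PBS replicate 3. With the filter at 50, 13 subunits entered the test, 4 higher and 1 lower. Gnal, among the 3 falls, entered the main test only through its PBS values, so it could only be called lower. Gnao1 lost its call in 5, Gna13 in 2 and Gng2 in 1 of the 6 fits without a library. Under equal totals Gnai3 was at −0.20, Gna13 at −0.32 and Gnao1 at 0.31, none of them called, and the list then had 0 higher and 8 lower. Without Rn45s in the totals Gnai3 (0.41), Gna13 (0.30) and Gnao1 (0.92) were not called, and the list had 0 higher and 5 lower. Quantile normalization also left Gnai3 (0.305) and Gna13 (0.318) without a call but kept that of Gnao1 (1.47), with 1 higher and 4 lower in the list.

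Of 7 receptor kinases and arrestins, which uncouple receptors from G proteins, 0 were higher and 2 lower: Grk5 (−0.68) and Arrb2, beta-arrestin-2 (−0.58), each of which lost its call in 4 of the 6 fits without a library. Without IL-33 replicate 1, 2 genes of this list were higher, and 5 were lower under equal totals and 4 under quantile normalization. Of 25 effectors, 3 rose, 7 fell and 15 were not called (median −0.43), and under equal totals the split was 0 higher and 16 lower. Leaving out IL-33 replicate 1 gave 6 higher effectors, and without PBS replicate 2, 4 were lower. Prkar1a, a regulatory subunit of protein kinase A (1.22), and Pik3r5 (1.14) and Pik3r6 (0.93), the regulatory subunits of the G protein-driven PI3 kinase gamma, were higher, although under equal totals none of these was called and Pik3r6 was at −0.10. Without Rn45s in the totals Pik3r6 (0.51) was not called either. The adenylyl cyclases Adcy9 (−1.74) and Adcy4 (−1.25) and the protein kinase A catalytic subunit Prkacb (−1.63) were lower, and Adcy9 and Prkacb were called without each library in turn, whereas Adcy4 lost its call without any 1 of the PBS libraries. Of 16 genes listed as other regulators, Gnl1, a GTP-binding protein (1.54), and Axin2, a Wnt pathway scaffold with an RGS domain (0.52), were higher and 0 were lower. Whether Gnl1 acts on heterotrimeric G proteins was not tested. Leaving out IL-33 replicate 1 gave 6 higher and 4 lower genes of this list, and without PBS replicate 3, 0 were called. Gnl1 lost its call in 1 and Axin2 in 5 of the 6 fits without a library, and under equal totals 0 were higher and 8 lower, with Axin2 at −0.52. Axin2 was also not called without Rn45s in the totals (0.099) or under quantile normalization (0.11).

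**Figure D4:**
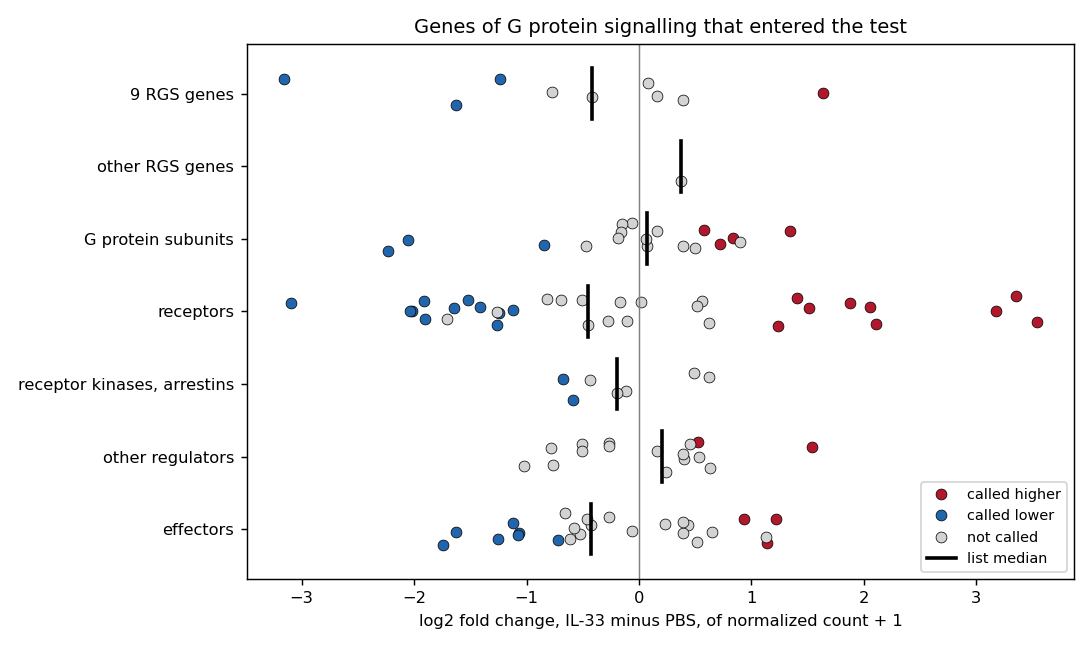
Log2 fold changes (x axis, IL-33 minus PBS, of normalized count + 1) of every gene that entered the test in the 9 RGS genes and 6 lists of the pathway (rows), with red points called higher, blue called lower, grey not called, and a black line at each list's median. The receptor values run between −3.09 for Gpr34, a low gene that entered the test only through its PBS values, and 3.54 for Adora2a.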

How the data were processed

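After ribosomal RNA depletion, total RNA of 6 eosinophil samples went into libraries from a kit that keeps strand, per the labels' protocols. The authors deposited 1 table of normalized counts per gene (a signal, not raw counts). The submitters' processing notes name DESeq2, HTSeq and HISAT2 and build mm10. Tool versions, the annotation and whether counting used strand: not given in the sources used here. All deposited values were whole multiples of their library's smallest value (100% within 0.1 of a read), which gave back the reads. The libraries carry no molecular identifiers as far as the labels say, so a read may be a PCR copy and read intervals hold for counting error alone.

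Groups were compared with limma 3.58.1 in R 4.3.3 (trend, two-sided) on log2(normalized count + 1), for genes at 10 or more in at least 3 libraries, with Benjamini-Hochberg adjustment over all genes tested and calls at 0.05. The added count shrinks fold changes of low genes, as for Rgs18 at −3.22 with 0.5, −3.16 with 1 and −2.76 with 5 added. The Rgs18 fall was nonetheless larger on this scale than in tests on reads, at −2.34 (edgeR) and −2.41 (DESeq2). Spans and exonic lengths come from GENCODE vM21 (mm10), where all 9 symbols matched, and promoters from RefSeq. The members, lists, tests and alternatives were chosen with earlier results of these data known, so no count over a list is independent evidence. From each list, up to 3 called genes per direction with a mean of at least 50 were named, or the 2 highest where none was called; the genes nearest the members on the chromosome and the 4 most like the largest rise and fall were added, and other names were chosen after their values were seen. Alternatives were other pseudocounts (0.5 and 5), no filter, a filter at 50, other scalings, no trend, edgeR 4.0.16 and DESeq2 1.42.0 on the reads, a replicate block and left-out libraries. The fits were tested on simulated data drawn from a common profile, without the Rn45s differences between libraries. That test does not tell how the fits behave under such differences. Values of a few genes are not reported here.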

Additional observations from a re-analysis of the deposited data

How the results depend on the processing

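Under equal totals, 0 RGS genes were called higher and 6 lower, 5551 genes were called in all, and values of genes called in either fit that changed sign were −0.96 (Rgs14), −0.88 (Rgs19), −0.20 (Gnai3), −0.32 (Gna13), −0.52 (Axin2), −0.10 (Pik3r6), −0.54 (Pgs1), −0.20 (Sod1) and −0.46 (Zfp516). Of genes called in neither, Rgs16 (−0.60), Rgs11 (−0.63), Syap1 (−0.67) and BC017158 (−0.65) changed sign too. Rgs14 was also turned round with IL-33 replicate 1 alone (−0.55). Without 1 library, 1 to 2 RGS genes were called higher, 1 to 5 lower, and 1013 to 5860 of all genes. The count over all genes was 5860 without IL-33 replicate 1, 1623 without IL-33 replicate 2, and 1703, 1139 and 1013 without PBS replicates 1, 2 and 3. With IL-33 replicate 1 alone, a comparison that takes its spread from the PBS libraries, Rgs3 was at 1.37. In that comparison Rgs2 was at −0.76, Rgs12 at −2.20, Rgs14 at −0.55 and Rgs18 at −1.28. Other pseudocounts and filters, TMM, quantile normalization, no trend, edgeR, DESeq2 and the replicate block called Rgs3 higher and Rgs2, Rgs12 and Rgs18 lower, as reported. On the recovered reads edgeR called 3388 genes and DESeq2 3862. With the replicate block 2918 genes were called in place of 3359. Deviations of same-numbered libraries from their group means correlated at 0.05, 0.24 and −0.16, and those of differently numbered libraries at −0.281 to 0.237. With so few libraries these values cannot tell whether same-numbered libraries shared a culture. Outside the RGS genes, 30 named genes were called; over their 570 alternative fits the call held in 450, was lost in 113 and changed sign in 7. The cause of these shifts was not tested. Depth limits Rgs16 and Rgs18 most, at 12 to 25 and 2 to 242 reads a library.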

Other observations

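A low G protein alpha subunit gene, chosen after its values were seen, was called lower. Gnaz, which encodes the Gz alpha subunit, a known substrate of Rgs19 and its relatives, had 9.89, 12.3 and 11.9 normalized counts in IL-33 replicates 1, 2 and 3, against 48.1, 49.5 and 52.4 in PBS replicates 1, 2 and 3 (log2 fold change −2.05, SE 0.27, adjusted p = 0.00165, limma).

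Rgs9, an R7 group gene known from photoreceptors and striatal neurons, lay below the filter, and it too was chosen after its values were seen. It had 4, 3 and 5 reads in IL-33 replicates 1, 2 and 3, against 1 read in each PBS library. In the fit without a filter it was called higher (log2 fold change 1.85, SE 0.44, adjusted p = 0.0205, limma). The equal PBS reads leave a PBS SD of 0.039 normalized counts, and this fit does not model the counting error of so few reads. The call therefore does not show a difference beyond that error.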
